A study of Mus musculus with 12 samples.

Results

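The serpins are a superfamily of proteins named for the serine protease inhibitors among them. The members described here are the 50 genes or groups of near-identical genes, measured by 53 probe sets of 35556 in all, whose platform symbols were all of the form Serpin with a clade letter from a to i and a number. The probe set with the highest mean over the 12 arrays was taken for each. Clade A had 16 members, clade B had 25, and clades C to I had 9. One member, written here as Serpina1a to e, was a probe set matched to all of the paralogs Serpina1a, Serpina1b, Serpina1c, Serpina1d and Serpina1e, and another, Serpinb9d to g, was likewise shared by neighbouring paralogs. Superfamily genes not listed in the platform table under such a symbol are not analysed here.

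In male mice 4 groups were compared, each with 3 arrays of total RNA from the jejunum, the middle part of the small intestine. They were A/J mice with ligation of the common bile duct (CBDL, an operation that stops bile from reaching the gut), A/J mice with a sham operation, C57BL/6J (B6) mice with CBDL, and B6 mice with a sham operation. All mice were 8 weeks old and the tissue was taken 7 days after the operation. Both strains are inbred, and no engineered allele was named for any of the 12 samples. The study asked which intestinal genes respond to blocked bile flow and whether the response depends on the strain.

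An inhibitory serpin presents a flexible reactive centre loop as bait to a protease. When the protease cuts the loop, the serpin snaps into a new shape and traps the enzyme in a covalent complex, so each inhibitor molecule is used once. Clade A serpins are mostly secreted proteins that the liver makes for the plasma, such as alpha-1 antitrypsin, the main plasma inhibitor of neutrophil elastase. Clade B serpins mostly stay inside the cell and protect it from its own or its neighbours' proteases. The remaining clades hold single inhibitors of the clotting, fibrinolytic and complement cascades, and serpins that do not inhibit proteases at all, such as the collagen chaperone HSP47.

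Values are log2 signals made by robust multi-array averaging (RMA), in which 1 unit is a doubling and array medians lay between 5.36 and 5.51. A signal depends on the probes of its own probe set, so levels are compared between arrays for one member and not between members. Differences were tested with limma over the 12 arrays and all 35556 probe sets, and a member was called where its Benjamini-Hochberg adjusted p was under 0.05. Of the 50 members, 33 lay below the lowest array median of 5.36 on every array (10 of 16 in clade A, 21 of 25 in clade B and 2 of 9 in clades C to I), so most of the superfamily was at or near the dim end of the arrays. The 10 enterocyte genes averaged 12.26 to 12.46 on the 12 arrays, as the tissue label would have it, and 6 squamous epithelium genes averaged 4.23 to 4.69. In whole tissue a change in the number of cells of a type and a change in RNA per cell cannot be told apart.

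The probe sets matched to Serpina1a to Serpina1e include the members with the largest differences below, and their signals move together. Signals of single paralogs cannot be told apart, and Serpina1a has no probe set of its own. Stretches before the start of 3 paralogs are shown, all on the minus strand of chromosome 12. Each is the 150 bases upstream in the RefSeq annotation of GRCm38.p6. They are Serpina1a at chr12:103863620-103863769, Serpina1c at chr12:103904951-103905100 and Serpina1d at chr12:103773634-103773783. Capitals mark GTTAAT, a half-site of the motif bound by the liver and gut transcription factor HNF1, which was searched on both strands.
Serpina1a: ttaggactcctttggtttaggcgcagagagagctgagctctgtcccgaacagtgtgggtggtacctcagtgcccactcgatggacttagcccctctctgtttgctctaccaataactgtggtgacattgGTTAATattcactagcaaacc
Serpina1c: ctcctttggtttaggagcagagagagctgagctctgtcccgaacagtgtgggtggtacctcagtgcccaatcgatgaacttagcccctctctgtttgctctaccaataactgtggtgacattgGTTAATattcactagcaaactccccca
Serpina1d: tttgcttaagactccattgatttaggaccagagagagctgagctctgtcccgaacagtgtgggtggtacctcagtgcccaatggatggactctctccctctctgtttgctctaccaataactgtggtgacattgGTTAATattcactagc
With the first base before the start counted as -1, GTTAAT began at -21 in Serpina1a, -27 in Serpina1c and -16 in Serpina1d. Serpina1b and Serpina1e also held it, at -26 and -78. The 250 upstream bases of Serpina1a to Serpina1d were 84.3% to 91.0% identical to each other, so these matches are not separate observations. Those of Serpina1e were 58.0% to 64.2% identical to the others, counted over all alignment columns, with gaps and unmatched ends included. The Serpina1e window is offset from the others, as the place of GTTAAT shows, so this lower share does not measure divergence. Of 53 member symbols, 46 had a window in the table. GTTAAT occurred within 250 upstream bases in 6 of 14 clade A genes, 2 of 24 clade B genes and 1 of 8 genes of clades C to I, against 6.4% of all 32851 promoters. The letters TTCNNNGAA, the form of a site for STAT factors of cytokine signalling, occurred in 2, 3 and 0 genes of these sets and in 7.0% of all promoters. Serpina3n, Serpinc1 and Serpinf2 held neither motif in this window. A match describes the letters only and is no evidence of binding.

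In A/J mice, 4 of 16 clade A members and 1 of 9 members of clades C to I rose after CBDL, none of the 25 clade B members was called, and no member fell. Over all probe sets 0.630% were called higher and 0.188% lower. The 5 that rose were Serpina1a to e, Serpina1c, Serpina1d, Serpina3n and Serpinc1. At an unadjusted p under 0.05 there were 8 clade A members, 1 clade B member and 4 members of clades C to I, 13 of 50 in all, against 14.2% of all probe sets. All 3 A/J CBDL arrays lay above all 3 A/J sham arrays for 13 members and below them for 4, against 8.04% and 9.07% of all probe sets. Those 13 were 9 of 16 in clade A, 0 of 25 in clade B and 4 of 9 in clades C to I. The median log2 difference was 0.30 in clade A, -0.04 in clade B and 0.41 in clades C to I, beside -0.01 over all probe sets.

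**Figure D1:**
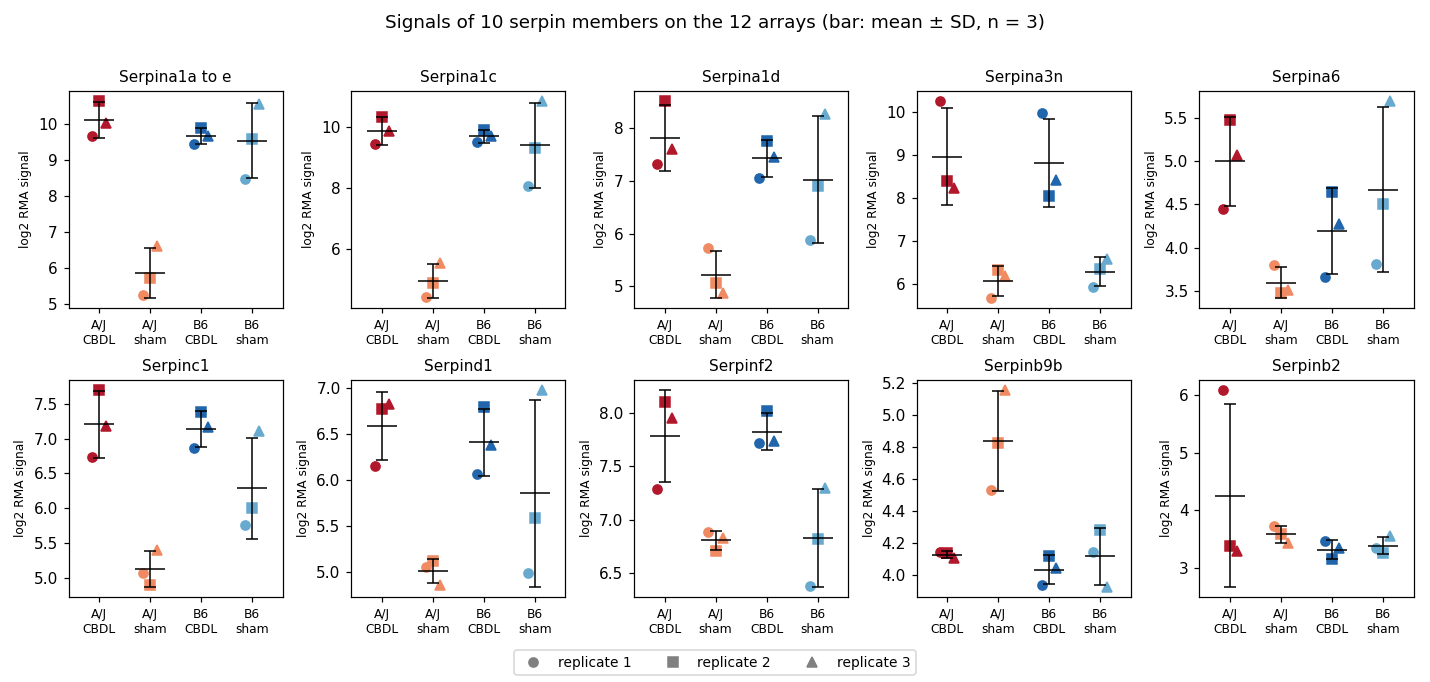
Log2 RMA signal (vertical axis, own range per panel) of 10 serpin members by group (horizontal axis), with 1 point per array, the marker giving the replicate number, and a bar for the mean ± SD of 3 arrays. Serpina1a to e and Serpina1c are low on the 3 A/J sham arrays only, Serpina3n is high in both CBDL groups, and the B6 sham arrays are spread widely for most clade A and C to F members.

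Serpina1c, one of the mouse alpha-1 antitrypsin genes, had log2 signals of 9.43, 10.34 and 9.86 in A/J CBDL mice, against 4.42, 4.91 and 5.53 in A/J sham mice. In B6 mice it had 9.50, 9.92 and 9.70 after CBDL, against 8.07, 9.31 and 10.86 after the sham operation. The 3 A/J sham arrays were thus the only low ones of 12, and the B6 groups overlapped. The difference in A/J mice was 4.92 on the log2 scale (SE 0.56, 30.3-fold, adjusted p = 0.00396), and in B6 mice it was 0.30 (SE 0.56, adjusted p = 0.967).

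The shared probe set of Serpina1a to e behaved alike, with 9.66, 10.64 and 10.03 in A/J CBDL mice, against 5.26, 5.72 and 6.62 in A/J sham mice. The B6 CBDL arrays had 9.45, 9.90 and 9.68, and the B6 sham arrays 8.48, 9.59 and 10.56. Its difference was 4.24 (SE 0.48, 18.9-fold, adjusted p = 0.00396) in A/J mice and 0.13 (SE 0.48, adjusted p = 0.985) in B6 mice. A second probe set for the same paralogs ranged from 8.94 to 9.96 in A/J CBDL mice, against 4.37 to 5.54 in A/J sham mice, and from 8.84 to 9.48 in B6 CBDL mice, against 7.65 to 9.86 in B6 sham mice. The paralogs are near-identical, so the signal of one gene among them cannot be told apart from that of the others, also for probe sets that carry a single symbol.

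Serpina1d had log2 signals of 7.32, 8.52 and 7.61 in A/J CBDL mice, against 5.72, 5.07 and 4.88 in A/J sham mice. The B6 CBDL arrays had 7.07, 7.76 and 7.46, against 5.88, 6.91 and 8.28 in the B6 sham group. Again the A/J groups were apart and the B6 groups overlapped, but the A/J difference was smaller, at 2.59 (SE 0.52, 6.04-fold, adjusted p = 0.0497). This call was lost when any one of 10 arrays was left out, that is each array other than B6 sham replicates 1 and 3, with an adjusted p of up to 0.174. In B6 mice the Serpina1d difference was 0.41 (SE 0.52, adjusted p = 0.946). Serpina1f, a paralog outside the Serpina1a to e group, stayed under the lowest array median on every array and differed by 0.02 in A/J mice.

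Serpina3n, the mouse relative of alpha-1 antichymotrypsin and an acute-phase protein, had a different pattern. It had log2 signals of 10.26, 8.41 and 8.25 in A/J CBDL mice, against 5.68, 6.35 and 6.21 in A/J sham mice. In B6 mice the signals were 9.997, 8.05 and 8.44 after CBDL, against 5.94, 6.35 and 6.60 after the sham operation. Every CBDL array of both strains lay above every sham array, and replicate 1 was the highest of its CBDL group in each strain. The difference was 2.89 (SE 0.56, 7.43-fold, adjusted p = 0.0441) in A/J mice and 2.53 (SE 0.56, 5.78-fold, adjusted p = 0.168) in B6 mice. The strain by CBDL term, which is the A/J difference minus the B6 difference, was 0.36 (SE 0.80, adjusted p = 0.96) for Serpina3n. Without A/J CBDL replicate 1 the A/J difference was 2.25 (SE 0.47, adjusted p = 0.0971), and the A/J call was lost when any one array other than B6 CBDL replicate 1 was left out, with an adjusted p of up to 0.127. Averaged over both strains the rise was 2.71 (SE 0.40, adjusted p = 0.0084), and this call held with each array left out in turn, at adjusted p of 0.00913 to 0.0259.

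Among the uncalled clade A members, the hormone carriers and the coagulation regulator gave the next differences. Serpina6, the corticosteroid-binding globulin of plasma, had 4.45, 5.48 and 5.07 in A/J CBDL mice, against 3.80, 3.47 and 3.52 in A/J sham mice. It had 3.67, 4.64 and 4.27 in B6 CBDL mice, against 3.81, 4.50 and 5.69 in B6 sham mice. The Serpina6 groups were apart in A/J mice and overlapped in B6 mice, with differences of 1.40 (SE 0.43, adjusted p = 0.17) and -0.48 (SE 0.43, adjusted p = 0.907).

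Serpina10, an inhibitor of clotting factor Xa that works with protein Z, had 5.38, 5.97 and 5.87 in A/J CBDL mice, against 5.17, 4.86 and 4.997 in A/J sham mice. Its B6 signals were 5.64, 5.43 and 5.63 after CBDL, against 4.74, 5.50 and 5.399 after the sham operation. The Serpina10 differences were 0.73 in A/J mice (adjusted p = 0.142) and 0.35 in B6 mice (adjusted p = 0.78). Serpina7, the thyroxine-binding globulin, was dim but apart in both strains, with 3.65, 4.21 and 4.62 in A/J CBDL mice against 3.35, 3.41 and 3.54 in A/J sham mice, and 3.77, 4.10 and 3.75 in B6 CBDL mice against 3.21, 3.39 and 3.48 in B6 sham mice. Its difference over both strains was 0.62 (SE 0.14, adjusted p = 0.0629).

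Serpina4-ps1, listed as a pseudogene by its symbol, had 4.07, 4.24 and 3.80 in A/J CBDL mice, against 3.96, 3.60 and 3.65 in A/J sham mice, and 3.65, 3.47 and 3.68 in B6 CBDL mice, against 3.81, 4.01 and 4.91 in B6 sham mice. It was the clade A member with the most negative B6 difference, -0.64 (SE 0.24, adjusted p = 0.528). The other 8 clade A members, Serpina11, Serpina12, Serpina16, Serpina1f, Serpina3a, Serpina3b, Serpina5 and Serpina9, stayed below the lowest array median on every array, with A/J differences between -0.04 and 0.31.

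**Figure D2:**
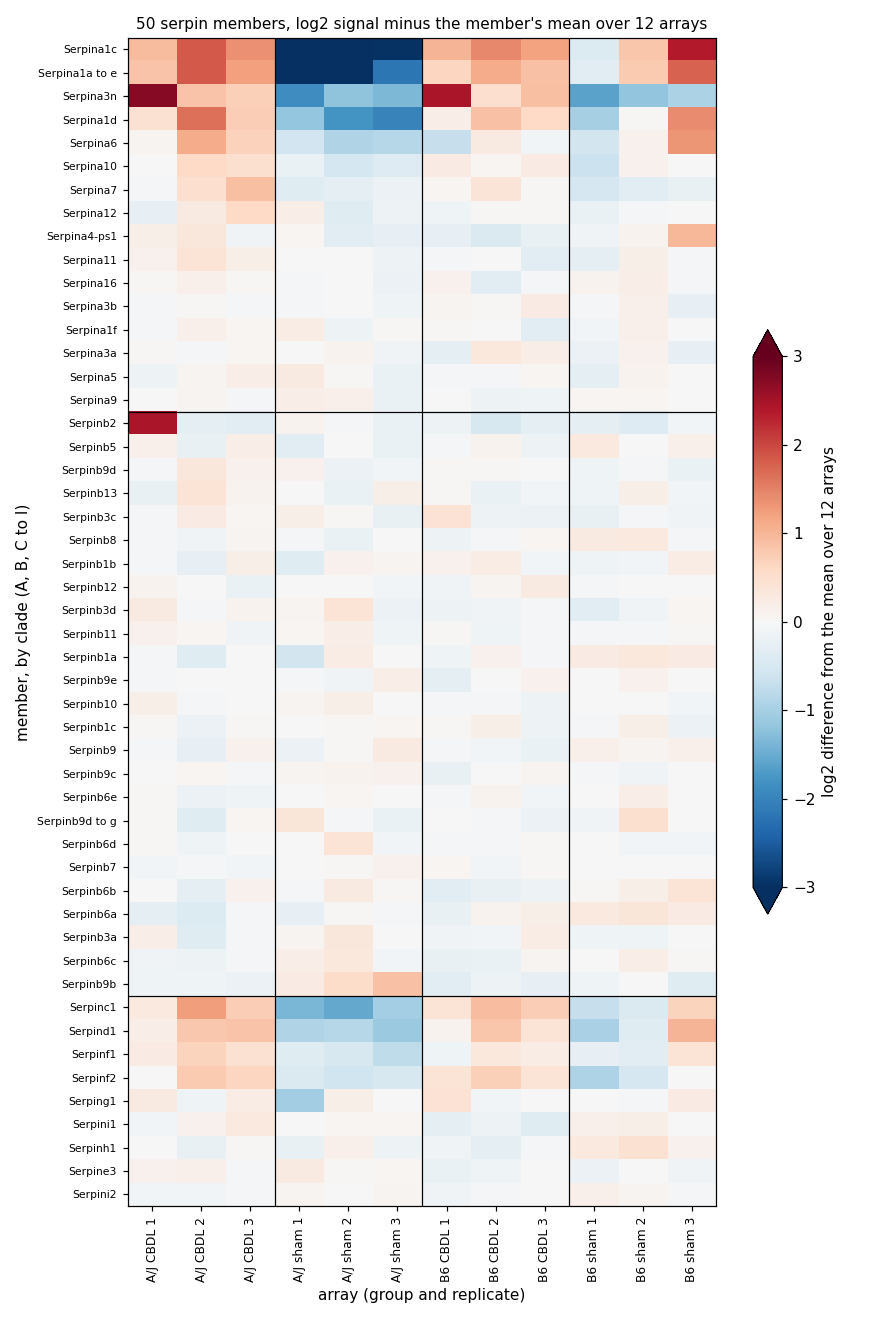
Log2 signal of 50 serpin members (rows, in the order clade A, clade B, clades C to I, and by A/J difference within each) on 12 arrays (columns, by group and replicate), each as the difference from the member's own mean over the 12 arrays. Colour runs from -3 to 3 with values beyond at the end colours. The strongest colours lie mainly in the first 7 rows of clade A, in Serpinb2 on A/J CBDL replicate 1, and in Serpinc1, Serpind1, Serpinf1 and Serpinf2.

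Clade B, the intracellular serpins, showed small differences on these arrays. Serpinb1a, an inhibitor of neutrophil elastase and related enzymes, had 11.18, 10.84 and 11.20 in A/J CBDL mice, against 10.66, 11.44 and 11.20 in A/J sham mice. In B6 mice it had 11.08, 11.33 and 11.17 after CBDL, against 11.47, 11.53 and 11.45 after the sham operation. The B6 CBDL arrays were below the B6 sham arrays, but by only 0.29 on the log2 scale (SE 0.18, adjusted p = 0.803), and in A/J mice the difference was -0.03 (SE 0.18, adjusted p = 0.962).

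Serpinb6a, a widely expressed intracellular inhibitor, had 10.59, 10.46 and 10.79 in A/J CBDL mice, against 10.63, 10.89 and 10.84 in A/J sham mice, and 10.64, 10.97 and 11.04 in B6 CBDL mice, against 11.16, 11.23 and 11.12 in B6 sham mice. The related Serpinb6b had 5.47, 5.22 and 5.62 in A/J CBDL mice, against 5.44, 5.76 and 5.53 in A/J sham mice, and 5.15, 5.27 and 5.34 in B6 CBDL mice, against 5.52, 5.67 and 5.90 in B6 sham mice. For both, the B6 CBDL arrays lay below the B6 sham arrays while the A/J groups overlapped. The B6 differences were -0.28 for Serpinb6a (SE 0.13, adjusted p = 0.649) and -0.44 for Serpinb6b (SE 0.14, adjusted p = 0.369).

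Serpinb9b, a relative of the granzyme B inhibitor Serpinb9, had 4.14, 4.14 and 4.10 in A/J CBDL mice, against 4.53, 4.83 and 5.16 in A/J sham mice. The B6 arrays had 3.94, 4.12 and 4.04 after CBDL, against 4.15, 4.28 and 3.93 after the sham operation. The A/J sham arrays were the 3 highest of 12, the reverse of the Serpina1 order. The A/J difference was -0.71 (SE 0.15, adjusted p = 0.0573), and without A/J sham replicate 1 it was -0.86 (SE 0.13, adjusted p = 0.0242). It was also called lower with quantile normalization (adjusted p = 0.0332) and with each array's median subtracted (adjusted p = 0.0319). All these Serpinb9b signals were below the lowest array median.

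Serpinb2, known as plasminogen activator inhibitor 2 and induced in macrophages by inflammatory stimuli, stood apart on a single array. It had 6.09, 3.38 and 3.30 in A/J CBDL mice, against 3.73, 3.59 and 3.43 in A/J sham mice, and 3.15 to 3.55 on the 6 B6 arrays. The A/J difference of 0.67 (SE 0.57, adjusted p = 0.636) was -0.24 (SE 0.14) without A/J CBDL replicate 1, so its sign rested on that array. The macrophage gene list averaged 7.26 to 7.75 in A/J CBDL mice, against 7.13 to 7.80 in A/J sham mice. The 20 other clade B members, all of them below the lowest array median on every array, had A/J differences between -0.24 and 0.20.

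Clades C to I hold the plasma inhibitors of clotting and fibrinolysis, and of these 9 members 4 lay apart with higher A/J CBDL arrays and 1, Serpini2, with lower ones, beside the 8.04% and 9.07% of all probe sets given above. Serpinc1, antithrombin, the main inhibitor of thrombin and factor Xa, had 6.74, 7.69 and 7.17 in A/J CBDL mice, against 5.08, 4.91 and 5.41 in A/J sham mice. In B6 mice it had 6.86, 7.38 and 7.17 after CBDL, against 5.76, 6.01 and 7.11 after the sham operation. The A/J groups were more than 1 unit apart, and in the B6 groups sham replicate 3 reached into the CBDL range. The difference was 2.07 (SE 0.33, 4.20-fold, adjusted p = 0.0178) in A/J mice and 0.84 (SE 0.33, adjusted p = 0.564) in B6 mice. The A/J call was lost without A/J CBDL replicate 2 or 3 or without A/J sham replicate 1 or 2, with an adjusted p of up to 0.0885.

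Serpind1, heparin cofactor II, another thrombin inhibitor, had 6.16, 6.78 and 6.83 in A/J CBDL mice, against 5.06, 5.12 and 4.86 in A/J sham mice. Its B6 signals were 6.07, 6.80 and 6.38 after CBDL, against 4.99, 5.59 and 6.98 after the sham operation. It was apart in A/J mice with a difference of 1.58 (SE 0.41, adjusted p = 0.113), against 0.56 (SE 0.41, adjusted p = 0.866) in B6 mice. Serpinf1, the secreted anti-angiogenic protein PEDF, which does not inhibit proteases, had 6.11, 6.54 and 6.33 in A/J CBDL mice, against 5.49, 5.37 and 5.11 in A/J sham mice, and 5.73, 6.18 and 6.09 in B6 CBDL mice, against 5.61, 5.53 and 6.28 in B6 sham mice. The Serpinf1 difference was 1.00 (SE 0.21, adjusted p = 0.0561) in A/J mice and 0.20 (SE 0.21, adjusted p = 0.93) in B6 mice. The spread of the B6 sham group entered these A/J tests, since the fit shares 1 variance, and without B6 sham replicate 3 the A/J differences were called for Serpind1 (adjusted p = 0.0118) and Serpinf1 (adjusted p = 0.0143).

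Serpinf2, alpha-2 antiplasmin, the main inhibitor of plasmin, was the member whose differences in the 2 strains were closest among those apart in both. It had 7.29, 8.10 and 7.95 in A/J CBDL mice, against 6.89, 6.71 and 6.83 in A/J sham mice, and 7.72, 8.02 and 7.73 in B6 CBDL mice, against 6.38, 6.82 and 7.30 in B6 sham mice. The differences were 0.97 (SE 0.24, adjusted p = 0.0994) in A/J mice and 0.99 (SE 0.24, adjusted p = 0.208) in B6 mice, and the strain by CBDL term was -0.02 (SE 0.34, adjusted p = 0.995). Over both strains Serpinf2 rose by 0.98 (SE 0.17, adjusted p = 0.0173). Without A/J sham replicate 2 that adjusted p was 0.0555.

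Serping1, the C1 inhibitor of complement and contact activation, had 9.04, 8.64 and 9.01 in A/J CBDL mice, against 7.74, 8.96 and 8.77 in A/J sham mice, and 9.22, 8.70 and 8.78 in B6 CBDL mice, against 8.77, 8.74 and 9.04 in B6 sham mice. Its groups overlapped in both strains, with differences of 0.41 (adjusted p = 0.543) in A/J mice and 0.05 (adjusted p = 0.989) in B6 mice. Serpinh1, which encodes the collagen chaperone HSP47, and Serpini1, the brain inhibitor neuroserpin, had B6 CBDL arrays below the B6 sham arrays, with differences of -0.44 (adjusted p = 0.332) and -0.37 (adjusted p = 0.31), while both overlapped in A/J mice. Serpine3 and Serpini2 differed by -0.03 and -0.12 in A/J mice and by -0.03 and -0.09 in B6 mice.

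**Figure D3:**
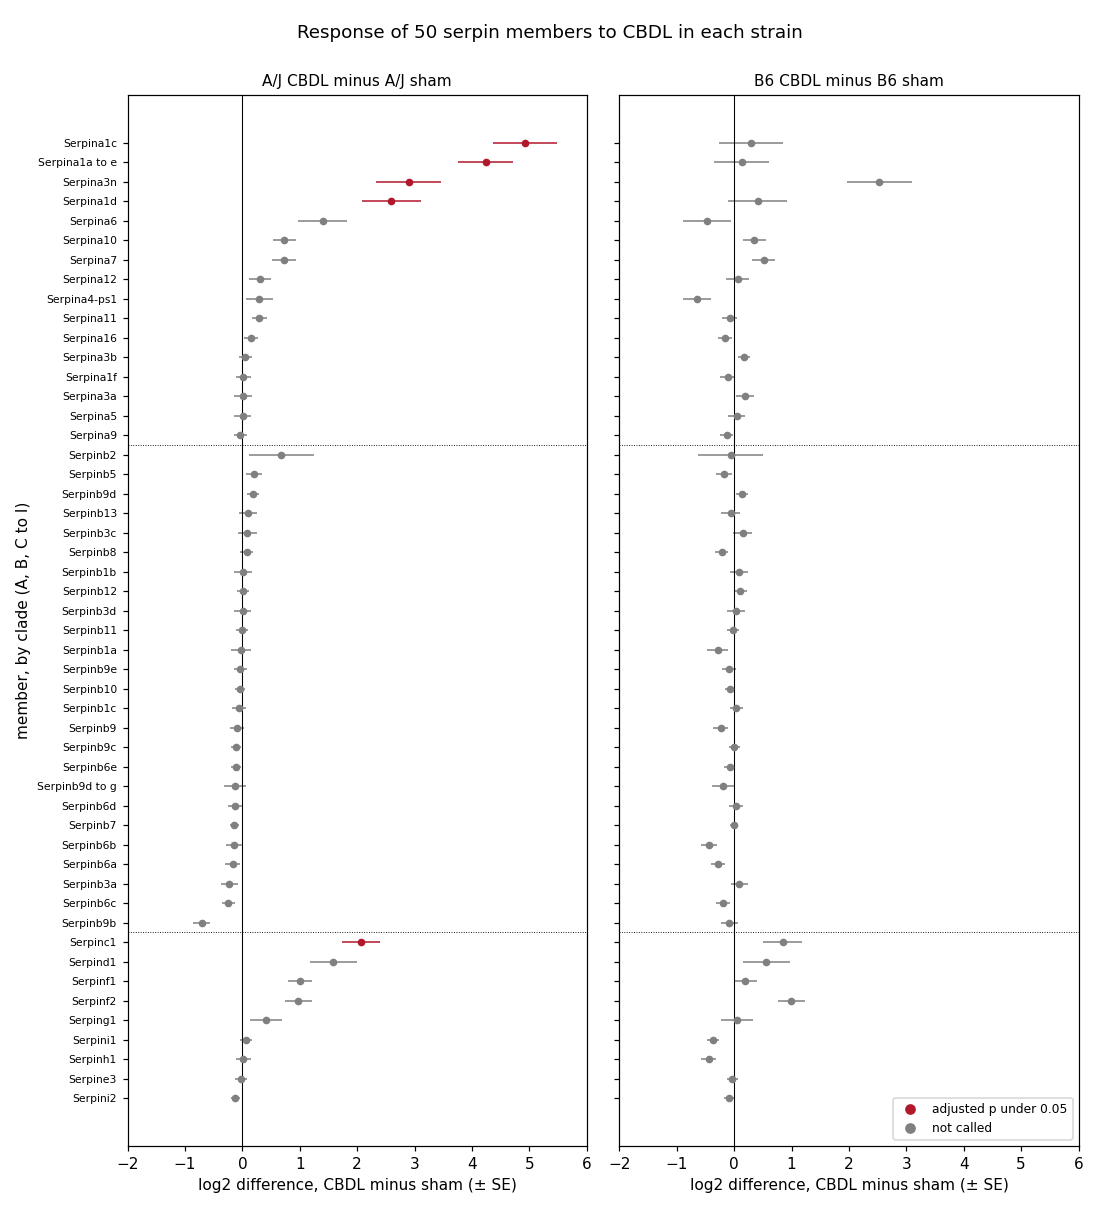
Log2 difference between CBDL and sham arrays (horizontal axis, ± SE from limma) for 50 serpin members (vertical axis, by clade and A/J difference), in A/J mice on the left and B6 mice on the right. Red marks the 5 members called in A/J mice, and no member was called in B6 mice, where Serpina3n had the highest difference, 2.53.

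In B6 mice limma called none of the 50 members after CBDL, against 0.0366% of all probe sets called higher and 0.0169% called lower. At an unadjusted p under 0.05 there were 9 members, against 7.64% of all probe sets. With only the probe sets that carry a symbol in the fit 1 member was called, Serpina3n (adjusted p = 0.0416), and 0.709% of all those tested, against 0.0534% in the fit of all probe sets. The B6 CBDL arrays lay above all B6 sham arrays for 4 members and below them for 7, beside 7.89% and 7.62% of all probe sets. The 7 were 1 in clade A, 4 in clade B and 2 in clades C to I. The median difference was 0.10 in clade A, -0.06 in clade B and 0.05 in clades C to I, beside 0.00 over all probe sets. Averaged over both strains, 5 members rose and none fell, namely Serpina1a to e (2.19, SE 0.34, adjusted p = 0.0113), Serpina1c (2.61, SE 0.39, adjusted p = 0.00986), Serpina3n, Serpinc1 (1.46, SE 0.24, adjusted p = 0.0135) and Serpinf2, while 1.12% of all probe sets were called higher and 0.616% lower. For Serpina1a to e and Serpina1c the B6 groups overlapped and the B6 differences given above were small, so these averages come mainly from A/J mice.

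The test of the strain by CBDL term asked whether the response differed between strains. None of the 50 members was called by limma, and 10 had an unadjusted p under 0.05, against 6.88% of all probe sets, while 0.0309% of all probe sets were called with a greater and 0.00562% with a smaller difference in A/J mice. The largest terms were 4.63 for Serpina1c (SE 0.79, adjusted p = 0.166) and 4.11 for Serpina1a to e (SE 0.68, adjusted p = 0.166), followed by Serpina1d at 2.19 (adjusted p = 0.647) and Serpina6 at 1.88 (adjusted p = 0.621). Both leading terms passed when B6 sham replicate 1 was left out, the lowest B6 sham array for each. They were then 5.30 (SE 0.60, adjusted p = 0.0168) for Serpina1c and 4.64 (SE 0.56, adjusted p = 0.0188) for Serpina1a to e. In that fit 0.0787% of all probe sets were called, and no other alternative fit called a member for this term. For Serpinc1, called in A/J mice alone, the term was 1.23 (SE 0.47, adjusted p = 0.686). A difference in response between the strains was thus not shown for Serpinc1, nor for Serpina1d or Serpina3n. Nor was it shown in the main fit for Serpina1c or Serpina1a to e, which passed only without B6 sham replicate 1.

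Among sham mice, 2 members were lower and 1 was higher in A/J than in B6 mice, beside 1.29% of all probe sets called lower and 0.579% called higher. From the signals given above, Serpina1c averaged 4.96 ± 0.56 in A/J sham mice and 9.41 ± 1.40 in B6 sham mice (SD, n = 3 each), a difference of -4.46 (SE 0.56, 22.0-fold, adjusted p = 0.00234). Serpina1a to e averaged 5.87 ± 0.69 in A/J sham mice and 9.54 ± 1.04 in B6 sham mice, a difference of -3.68 (SE 0.48, 12.8-fold, adjusted p = 0.00304), with an adjusted p of 0.0509 when only these 6 arrays were fitted. Serpinb9b averaged 4.84 ± 0.31 in A/J sham mice and 4.12 ± 0.18 in B6 sham mice, a difference of 0.72 (SE 0.15, adjusted p = 0.0329). The Serpinb9b call was lost when any one of 9 arrays was left out, all but A/J sham replicates 1 and 3 and B6 sham replicate 2, with an adjusted p of up to 0.136. The A/J sham arrays lay above all B6 sham arrays for 6 members and below them for 8, against 9.15% and 9.53% of all probe sets.

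Uncalled differences between the sham groups were -1.80 for Serpina1d (SE 0.52, adjusted p = 0.127), -1.16 for Serpinc1 (SE 0.33, adjusted p = 0.128) and -1.07 for Serpina6 (SE 0.43, adjusted p = 0.257). Without B6 sham replicate 1 the Serpina1d difference was called, at -2.37 (SE 0.45, adjusted p = 0.0342), and with array weights that of Serpinc1 was, at -1.17 (SE 0.31, adjusted p = 0.0438). Of all probe sets 1.34% and 8.56% were called in these 2 fits, against 1.87% in the main fit. The comparison of sham groups uses the A/J sham arrays that also enter the A/J response, so its low Serpina1 values and the A/J rise are not separate observations. Among CBDL mice no member was called between A/J and B6, 2 had an unadjusted p under 0.05 (13.7% of all probe sets), and 0.562% of all probe sets were called higher and 1.22% lower. Serpina1c averaged 9.88 ± 0.45 in A/J CBDL mice and 9.71 ± 0.21 in B6 CBDL mice (SD, n = 3 each), and Serpina3n averaged 8.97 ± 1.12 and 8.83 ± 1.03 in the same groups. The A/J CBDL arrays lay above all B6 CBDL arrays for 4 members and below for 1, against 10.4% and 11.3% of all probe sets.

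Hepatocyte genes were also called in these comparisons. Their lists were chosen with earlier results of these data known, so the counts below are not independent of those results. Of 21 measured hepatocyte enzymes and transporters, none of them a serpin, 7 rose in A/J mice after CBDL, 0 were called in B6 mice (9 at an unadjusted p under 0.05), and 1 was lower in A/J than in B6 sham mice. Their mean was 6.40, 6.73 and 6.40 in A/J CBDL mice, against 4.62, 4.55 and 4.59 in A/J sham mice, and 6.18, 6.50 and 6.35 in B6 CBDL mice, against 4.82, 5.42 and 6.80 in B6 sham mice. Of 19 hepatocyte plasma proteins 17 rose in A/J mice and 1 in B6 mice, and 8 were lower in A/J than in B6 sham mice. The mean of the plasma proteins was 8.33 to 8.92 in A/J CBDL mice, against 4.98 to 5.41 in A/J sham mice, and 8.32 to 8.62 in B6 CBDL mice, against 6.17 to 8.22 in B6 sham mice. As for the hepatocyte mean, B6 sham replicate 1 was the lowest and replicate 3 the highest of their group for 17 of 50 members, against 12.9% of all probe sets. They were 8 in clade A, 6 in clade B and 3 in clades C to I, counted after the values were seen. Among them were the 3 called Serpina1 members, Serpina3n, Serpina6, Serpinc1 and Serpind1.

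With the hepatocyte enzyme and transporter mean added to the fit as a covariate, no member was called in A/J mice (4 at an unadjusted p under 0.05) or over both strains. Of all probe sets 0% and 0.0141% were called in these 2 comparisons, so the loss of calls was not particular to serpins. The A/J difference was then 2.28 for Serpina1c (SE 0.48, adjusted p = 0.536), 2.24 for Serpina1a to e (SE 0.58, adjusted p = 0.753), 0.14 for Serpina1d (SE 0.45), 0.57 for Serpinc1 (SE 0.35) and 2.80 for Serpina3n (SE 1.11), and for Serpind1 it was -0.40 (SE 0.32) and for Serpina6 -0.58 (SE 0.39). In A/J mice 98.7% of the variance of that mean lay between the operations, so it and the operation cannot be told apart there. Standard errors of the 50 members widened by a median factor of 1.95. Those of Serpina1c, Serpina1d, Serpind1 and Serpina6 were smaller than without the covariate, and those of Serpina1a to e, Serpinc1 and Serpina3n were larger. Why the calls were lost was not tested. Between the sham groups the calls of Serpina1c (-2.96, SE 0.34, adjusted p = 0.00826) and Serpina1a to e (-2.54, SE 0.42, adjusted p = 0.0359) held with the covariate, and that of Serpinb9b did not (0.59, SE 0.20, adjusted p = 0.441). For Serpina3n, B6 sham replicate 3 had the highest signal of its group, 6.60, and the highest hepatocyte mean of the 12 arrays, and that signal was below the one of every CBDL array.

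**Figure D4:**
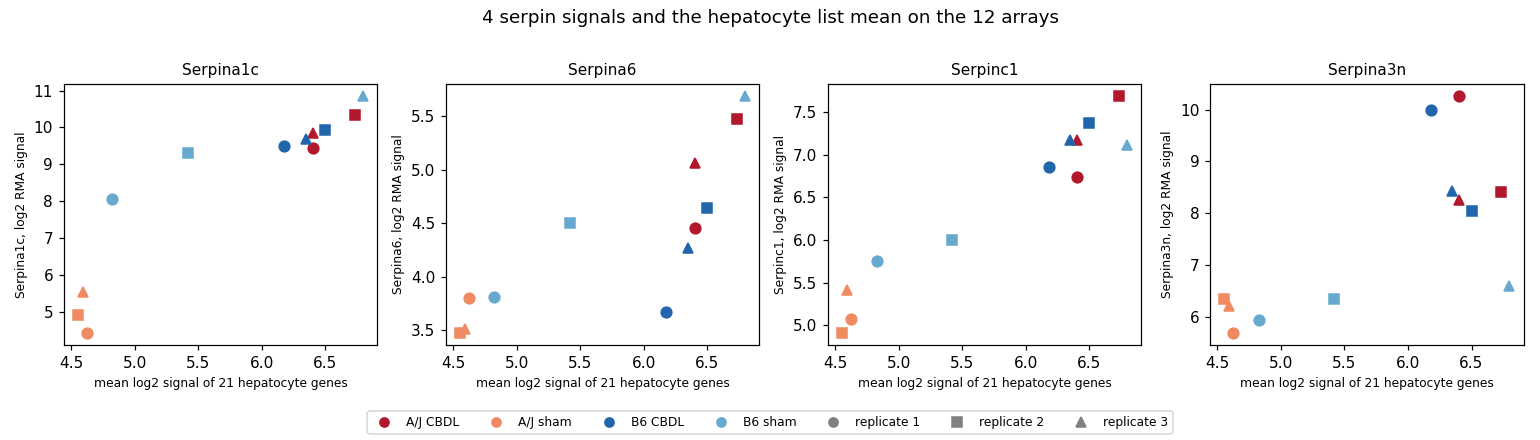
Log2 RMA signal of Serpina1c, Serpina6, Serpinc1 and Serpina3n (vertical axes) against the mean log2 signal of 21 hepatocyte enzymes and transporters (horizontal axes), 1 point per array, coloured by group and with the marker giving the replicate number. Serpina1c, Serpina6 and Serpinc1 were high on B6 sham replicate 3, at the right end, where Serpina3n was at 6.60.

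Proteases and other proteins that serpins act with were described in the same way. Of 26 measured target proteases 4 rose in A/J mice after CBDL and none fell. They were Plg, the precursor of plasmin, at 2.65 (SE 0.40, adjusted p = 0.0124), F2, prothrombin, at 2.60 (SE 0.49, adjusted p = 0.0372), F9, clotting factor IX, at 1.35 (SE 0.27, adjusted p = 0.0494), and St14, the epithelial membrane protease matriptase, at 0.51 (SE 0.09, adjusted p = 0.0274). Plg, F2 and F9 are themselves made mainly by the liver. Elane, neutrophil elastase, the enzyme that alpha-1 antitrypsin mainly inhibits, differed by -0.07 (adjusted p = 0.848). Of 10 neutrophil genes, Elane among them, 1 was called higher in A/J mice, Retnlg at 0.94 (SE 0.14, adjusted p = 0.0123), and 9 were not called. Their mean was dim, at 4.14 to 4.30 in A/J CBDL mice, against 3.96 to 4.16 in A/J sham mice. In B6 mice 0 of the 26 proteases were called (8 at an unadjusted p under 0.05).

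The granzymes, proteases of cytotoxic lymphocytes that some clade B serpins inhibit, were called between the strains among sham mice. Gzma was lower in A/J than in B6 mice, with log2 differences of -2.20 (SE 0.18, adjusted p = 0.000136) among sham mice and -1.08 (SE 0.18, adjusted p = 0.0109) among CBDL mice. Gzmb had a difference of -0.93 (SE 0.18, adjusted p = 0.0265) among sham mice, in which Serpinb9b was higher in A/J, and of -0.54 (SE 0.18, adjusted p = 0.204) among CBDL mice. Gzmb fell by 0.78 after CBDL over both strains (SE 0.13, adjusted p = 0.0146). The list of T and NK cell genes averaged 6.61 to 6.74 in A/J sham mice and 7.01 to 7.28 in B6 sham mice, and 6.55 to 6.68 in A/J CBDL mice and 6.46 to 6.59 in B6 CBDL mice. Its part in the granzyme and Serpinb9b values was not tested.

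Of 10 measured partners and clearance receptors, Vtn, the plasma and matrix adhesion protein vitronectin, rose in A/J mice by 3.17 (SE 0.45, adjusted p = 0.00916), and the receptor Lrp1, which clears serpin and protease complexes, differed by -0.04 (adjusted p = 0.912). Of 15 inhibitors of other families 4 rose in A/J mice, the alpha-2 macroglobulin relatives Pzp (4.20, SE 0.47, adjusted p = 0.00396) and Mug1 (3.23, SE 0.44, adjusted p = 0.00717), and Itih4 (2.76, adjusted p = 0.00834) and Ambp (2.35, adjusted p = 0.0141) of the inter-alpha inhibitor family. Pzp and Mug1 were also lower in A/J than in B6 sham mice, by log2 differences of -2.88 (adjusted p = 0.00969) and -2.18 (adjusted p = 0.0296), as Serpina1c was. Itih4 and Ambp are also in the list of hepatocyte plasma proteins.

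Of 9 regulators of hepatic and acute-phase genes limma called 0 in each comparison, and at an unadjusted p under 0.05 there were 3 in A/J mice, 0 in B6 mice and 2 over both strains. Their mean was 7.59 to 7.78 in A/J CBDL mice, against 7.52 to 7.71 in A/J sham mice. Agt, angiotensinogen, is a clade A serpin by sequence with no Serpin symbol and so no member. It had log2 signals of 6.63, 7.26 and 7.15 in A/J CBDL mice, against 6.04, 6.31 and 6.19 in A/J sham mice, and 6.97, 7.34 and 7.21 in B6 CBDL mice, against 6.51, 6.76 and 6.94 in B6 sham mice. CBDL arrays lay above sham arrays in both strains, and over both strains Agt rose by 0.64 (SE 0.12, adjusted p = 0.0304).

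By position in the RefSeq table (GRCm38.p6), 15 of 16 clade A members were on chromosome 12 and Serpina7 was on the X chromosome. The 25 clade B members were split between chromosome 1, with 11, and chromosome 13, with 14. The 9 members of clades C to I were spread over 7 chromosomes, with Serpinf1 and Serpinf2 both on chromosome 11 and Serpini1 and Serpini2 both on chromosome 3.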

How the data were processed

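Total RNA from the jejunum was measured on 12 Affymetrix arrays. Per the labels, the authors deposited log2 values per probe set from RMA, run in the Affymetrix Expression Console. The study's methods name GCRMA and another array type, and the sources used here give no versions. RMA summarises several probes into 1 signal and compresses low signals, so differences of dim probe sets are understated. Values were used as deposited. They ranged from 1.57 to 14.4. No column lacked a sample.

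Symbols came from the platform table, where 21789 probe sets have 1 symbol, 1621 several and 12146 none here (19938 distinct genes). The Entrez IDs of all 50 members are in the RefSeq gene table. The members and gene lists were chosen with earlier results of these data known, some of them from those results.

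The 4 group means were estimated over the 12 arrays and 35556 probe sets with limma 3.58.1 (lmFit, eBayes) in R 4.3.3, and p-values were adjusted by Benjamini-Hochberg over all probe sets, with 0.05 as the threshold. The script was tested on simulated data. Named with every array's value are the members called in any comparison, the 3 with the highest mean level in clade A, in clade B and in clades C to I, and the 2 uncalled members with the largest difference there in each CBDL comparison. Serpina7, Serpinh1 and Serpini1 were named after their values were seen, as were Serpina1f, Serpine3 and Serpini2. Of other lists up to 4 called genes per comparison are named, and Elane and Lrp1 were added after their values were seen.

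Alternatives were the 6 arrays compared, no dimmest 30%, quantile normalization, median subtraction, array weights, a variance prior with trend and robust fit, the hepatocyte covariate, the replicate number as a block, symbol-bearing probe sets, the mean of a gene's probe sets, and each array left out. The number of arrays limits the precision, and as nothing ties each array to a separate animal, the p-values reflect only how far these samples differ, which may be technical. Figures were drawn with matplotlib 3.10.9 under Python 3.11.15 and tables read with pandas 2.3.3.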

Additional observations from a re-analysis of the deposited data

How the results depend on the processing

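The count of members called after CBDL in A/J mice was 5, and it was 10 (9 of them higher) with array weights, 9 (8 higher) with only symbol-bearing probe sets, while the share of all features called went to 3.65% and 2.49% in these fits, against 0.818%. It was 0 with the hepatocyte covariate (0% of all features), and 2 to 6 with 1 array left out. The covariate nearly coincides with the operation in A/J mice. Over both strains the count of 5 became 11 (10 higher) with array weights and 11 (10 higher) with symbol-bearing probe sets. Of all features 4.25% and 4.03% were called in these fits, against 1.74%. The count became 0 with the covariate (0.0141% of all features), 8 without B6 sham replicate 3, and 4 to 8 over all single arrays left out. In B6 mice it was 0, and 1 with symbol-bearing probe sets (0.709% of all features, against 0.0534%). Between sham groups the 3 calls became 1 in a fit of these 6 arrays, 4 with array weights (8.56% of all features, against 1.87%) and 2 to 3 with 1 array left out. Between CBDL groups the count was 0, and 1 with array weights. For the strain by CBDL term it was 0, and 0 to 2 with 1 array left out. Symbol-bearing probe sets are fewer to adjust over, and their fit also estimates the standard errors anew. The cause of the shifts was not tested for any of these fits.

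The replicate numbers did not pair the arrays, since deviations from the group means correlated at -0.31 to 0.36 between arrays of the same number and -0.36 to 0.26 between different numbers. The best match outside its own group had the same number for 4 of 12 arrays. With the replicate number as a block, 3 members were called in A/J mice, 2 between sham groups and 5 over both strains. Of all features 0.534%, 1.43% and 1.2% were called in that fit, against 0.818%, 1.87% and 1.74% in the main fit. No called value changed sign under any alternative, and no scaling moved the median of all probe sets by over 0.1. Of the alternative values of single members, 2045 kept their sign and their side of the threshold, 54 lost a call and 35 gained one. The other 64 changed sign and were called in neither fit. With 3 arrays a group, differences of dim members, 33 of 50, are limited by signal over background.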

Other observations

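B6 sham replicate 1 was the lowest and replicate 3 the highest of their group for 17 of the 50 serpin members (8 in clade A, 6 in clade B and 3 in clades C to I), against 12.9% of all probe sets. Replicate 1 was the lowest array in both CBDL groups for 10 members, among them Serpina1c, Serpina1d, Serpina6, Serpinc1, Serpind1, Serpinf1 and Serpinf2, against 11.2% of all probe sets, and the highest in both for 5 members, Serpina3n, Serpinb2, Serpinb10, Serpinb11 and Serping1, against 10.6%. These counts were made after the values were seen.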
